A study of Glycine max with 23 samples.

Results

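The MYB and NAC genes are 2 families of plant transcription factors, proteins that bind DNA and set the transcription of other genes. They are described here in the compartments of young soybean (Glycine max) seeds. The members were every gene with a symbol of MYB or NAC followed by a number and at least 1 soybean probe set annotated to that gene alone. This rule gave 81 genes (66 MYB and 15 NAC) of the 6031 genes that have a probe set of their own, with 132 probe sets in all. Each gene is represented by the probe set with the highest mean over the arrays on the log2 scale used for the tests. It is called the brightest probe set below. On the linear scale another probe set of the gene can have the higher mean, as for MYB12A. A further 20 probe sets were left out because each is annotated to several genes.

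MYB proteins bind DNA through repeats of the MYB domain. The R2R3 class, which is large in plants, is known for controlling the flavonoid and phenylpropanoid pathways, cell shape and organ development, and the pigments and tannins of seed coats are classical outputs of R2R3-MYB control. NAC proteins are found only in plants, share a conserved NAC domain at their N-terminus, and act in organ boundaries, secondary walls, senescence and stress responses. Few of the soybean members have a role established in soybean. A known role is given below for some members, and the other members are described by their values only.

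Transcripts were measured with the Affymetrix Soybean Genome Array, a 1-colour array of short oligonucleotides, in untreated plants of the cultivar Asgrow A3237 kept at 22 °C under a day of 16 h and a night of 8 h. Seeds at the heart stage of the embryo came from pods 1.3 to 2 cm long. Laser capture from 8 µm sections gave 8 compartments on 19 arrays, with 3 arrays each for the embryo proper, the endosperm and the suspensor, a stalk that anchors the embryo. The seed coat was divided into 5 regions with 2 arrays each, the outer integument, inner integument, hilum, epidermis and endothelium. Grinding of intact seeds, and of leaves 1.5 to 2.5 cm in length, gave 2 arrays each. RNA of all samples was amplified from 2 ng. The captured and the ground samples were extracted with different reagents, so no contrast set one kind against the other. Where their signals are given side by side, the difference was not tested. Endosperm replicate 3 was captured with another microscope model. The labels name the arrays of each group biological replicates but do not tie them to separate plants. The p-values therefore measure the spread between these arrays, which may be technical in part. In such bulk samples, fewer cells of a type and less RNA per cell cannot be told apart.

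A signal is the deposited intensity, and background is the 95th percentile of the signal of pathogen probe sets on the same array. It lay between 86.3 and 231.4 on 21 arrays, and stood apart at 420.1 on suspensor replicate 1 and 404.9 on endosperm replicate 1. Between 15 members (suspensor replicate 1) and 53 members were above background on an array. LEC1-A, a regulator of embryo identity, was above background on every array of the embryo proper, suspensor and endosperm and on no array of the seed coat. WRI1B, the other embryo marker and a regulator of oil synthesis, was above background on all arrays of the embryo proper and endosperm, 2 of the 3 suspensor arrays, 1 inner integument array (289.9) and 1 leaf array. The 3 markers of seed coat and carpel identity (AGL1L, MADS28 and SEP1) were above background on all seed coat arrays, where their summed signal was 18396 to 35413. That sum was 122 to 178 in the embryo proper, 269.6 to 864 in the endosperm and 1047 to 3856 in the suspensor, in which AGL1L exceeded background on all 3 arrays. The 5 endothelium markers, enzymes of anthocyanin and tannin synthesis, went against that label. Their sum was 2350 and 19735 on the 2 endothelium arrays, but 61024 to 62902 in the epidermis and 40816 to 55616 in the hilum. The 5 leaf markers summed to 84715 to 91394 in leaf, but also to 54894 to 88943 in the embryo proper and 68632 to 71269 in the outer integument. RCA14, RCA11 and RCAALPHA, of rubisco activase, were highest in leaf, while CAB3, of the light-harvesting complex, was highest in the embryo proper and RCABETA in the epidermis.

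Fewer groups held detectable MYB and NAC transcripts than was usual for named soybean genes. A member was above background on every array of a median of 3 of the 10 groups, against 9 groups for all 6031 genes. Tests covered the 57 members (46 MYB and 11 NAC) detected throughout 1 group or more, that is, above background on all its arrays. Of the other 24 members, 10 exceeded background only on scattered arrays and 14 on no array. Those 14 were MYB13, MYB29, MYB82, MYB84, MYB97, MYB121, MYB145 (gene ID 778185), MYB177, MYB178, MYB179, MYB181, MYB185, NAC1 and NAC51. MYB29 is known in soybean as an activator of isoflavone synthase genes, and its signal was 1.5 to 156.6 over the 23 arrays, below background on each. For these genes only an upper limit, the background of each array, was measured.

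Within the seed, the endothelium had 34 members above background on both arrays (42% of the 81 members), the outer integument 33, the epidermis and the hilum 31 each, and the inner integument 27. The embryo proper had 22 on its 3 arrays (27.2%), and the suspensor and the endosperm had 15 each (18.5%). All soybean probe sets together gave 43.2% in the endothelium, 44.2% in the embryo proper, 31% in the suspensor and 34.2% in the endosperm. For all named genes, each by its brightest probe set, these shares were 67.4%, 67.2%, 53.6% and 54%. The suspensor and the endosperm each include 1 of the arrays with high background, and a group of 3 arrays passes this rule less easily than a group of 2. In at least 1 seed coat region, but in none of the embryo proper, suspensor and endosperm, 23 members passed it (28.4%, against 9.73% of named genes and 11.5% of all soybean probe sets). The reverse held for 1 member (1.23%, against 2.79% and 2.78%). Whole seed had 47 members above background on both arrays (58%, against 79.7% of named genes) and leaf had 44 (54.3%, against 82.4%).

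On all arrays of the 10 groups 11 members were above background, namely MYB107, MYB112, MYB12A, MYB133, MYB138, MYB176, MYB180, MYB50, MYB55, MYB70 and NAC14. The evenest of them was MYB107, with signals of 972 to 2995 on the captured arrays and group means within 0.32 of each other on the log2 scale (F test, adjusted p = 0.994). MYB55 spanned 0.89, MYB70 1.07 and MYB12A 1.12 on that scale. By these probe sets none of the 4 passed the F test among compartments. For MYB12A another probe set went against this. It gave 8152, 8346 and 9192 in the suspensor. Its signal in the embryo proper was 560.5, 760.9 and 234.8, and no other captured array exceeded 501.1. This probe set was 6.71 higher in the suspensor (adjusted p = 1.83e-08) and at -3.77 in the seed coat against the embryo and endosperm (adjusted p = 5e-07). The evenness of MYB12A is thus that of its probe set with the highest log2 mean only. Counts of calls for members do not include the other one, although its mean linear signal is higher. A choice by linear signal would have put that probe set and its calls in the counts. NAC14 was the only NAC gene detected throughout, and its group means spanned 3.90.

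Tests were limma contrasts on log2(signal + 16) with Benjamini-Hochberg adjustment over the 25686 soybean probe sets tested. Calls required an adjusted p under 0.05 together with a 2-fold difference or more. Among the 8 captured compartments, 28 of the 57 tested members (49.1%) differed by the F test, 21 of them MYB and 7 NAC. The share was 52.6% over all tested probe sets and 64.1% over the 5352 tested named genes, each by its brightest probe set as for the members. At an unadjusted p under 0.05 the number was 31. The median range of group means was 2.38 for the members and 2.10 for all probe sets on the log2 scale.

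Of the 28 members that differed, 21 had their highest mean in a seed coat region (75%) and 7 elsewhere. That share was 52.7% over all probe sets that differed and 52% over the named genes that did. The endothelium was highest for MYB48, MYB56, MYB57, MYB180, NAC2, NAC6 and NAC34. The inner integument was highest for MYB75, MYB83, MYB114, MYB134, NAC14 and NAC19, and the outer integument for MYB51, MYB109, MYB124 and MYB138. The hilum was highest for MYB11 and MYB73, and the epidermis for MYB79 and MYB172. The endosperm led for MYB52, MYB133, NAC018 and NAC27, the suspensor for MYB60, MYB112 and MYB176, and the embryo proper for none. The order at the top was seldom resolved, since 2 of the 28 differed from their second compartment at an adjusted p under 0.05. These were NAC018, endosperm over suspensor (adjusted p = 0.0468), and MYB176, suspensor over endosperm (adjusted p = 0.0109).

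**Figure D1:**
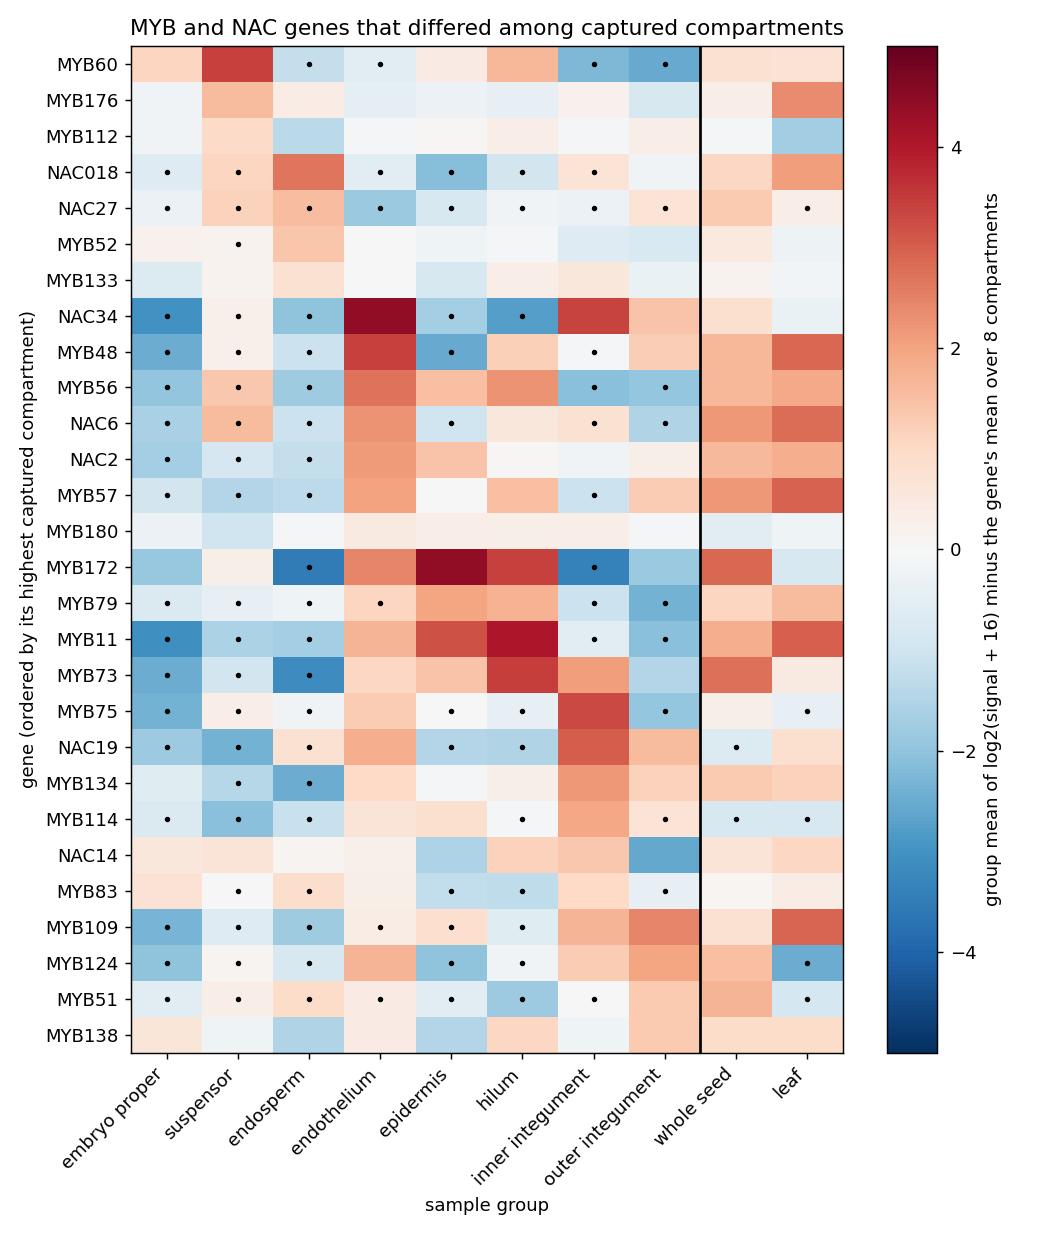
Mean log2(signal + 16) of each sample group (columns) minus the gene's mean over the 8 captured compartments, for the 28 MYB and NAC genes (rows, ordered by their highest compartment) that differed among compartments. Red is higher and blue is lower on the log2 scale, a black dot marks a group in which the gene was not above background on every array, and the vertical line separates captured from ground samples. The 3 strongest reds are NAC34 in the endothelium, MYB172 in the epidermis and MYB11 in the hilum.

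By brightest probe sets, no member exceeded each of the other compartments by 4-fold or more at an adjusted p under 0.05. Of all tested probe sets 3.68% met this criterion. At unadjusted p-values MYB75 met it, in the inner integument. Without suspensor replicate 1, an array of high background, MYB60 met it in the suspensor. The other MYB12A probe set described above, bright in the suspensor, was not counted among the members here. It was at -4.15 in the embryo proper against the suspensor (adjusted p = 0.00033).

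Among captured compartments MYB172 and MYB11 were brightest in the epidermis and the hilum, and both were also called higher in the endothelium. MYB73 was called higher in the hilum and the inner integument. MYB172 (gene ID 778180) gave signals of 45084 and 34671 in the epidermis, 18155 and 21911 in the hilum and 8617 and 12035 in the endothelium. In the outer integument it gave 355.5 and 676, in the inner integument 1253 and 9.6, and in the endosperm 114.3, 136.6 and 204.1. Both epidermis arrays exceeded every other captured array. Against the mean of the other 7 compartments, MYB172 was 5.05 ± 0.72 higher in the epidermis on the log2 scale (SE, adjusted p = 5.53e-05, 33.1-fold) and 3.92 ± 0.72 higher in the hilum (adjusted p = 0.000917). A second probe set of MYB172 followed the first over the arrays (r = 0.98) and was called in the same direction in both regions, with 5.45 and 4.30. The other probe set was called in the hilum (2.37) and not in the epidermis.

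MYB11 (gene ID 100101835) gave 5001 and 6073 in the hilum, 2547 and 3557 in the epidermis, and 732.5 and 1577 in the endothelium. Its signal was 11.9 to 46.2 in the embryo proper, below background on each array. It was 4.64 ± 0.57 higher in the hilum (adjusted p = 1.27e-05, at least 14.8-fold) and 3.64 ± 0.57 higher in the epidermis (adjusted p = 0.000143, at least 7.45-fold). "At least" is used where 1 or more of the dimmer compartments were below background on every array, and were therefore set to background. Another probe set annotated to MYB11 did not follow it (r = -0.07 over the arrays), with -0.08 in the hilum and -0.56 in the epidermis. With the mean of the probe sets, MYB11 fell to 1.30 in the hilum (adjusted p = 0.104) and 1.02 in the epidermis (adjusted p = 0.227), so these calls rest on 1 probe set.

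MYB73 (gene ID 778179) gave 8046 and 6717 in the hilum, and its signal was 4347 and 1880 in the inner integument, 932.5 and 3437 in the epidermis and 680 and 2810 in the endothelium. Both hilum arrays were above all other captured arrays, and the replicates of the other coat regions differed widely. MYB73 was 3.93 ± 0.74 higher in the hilum (adjusted p = 0.00118, at least 12.9-fold). Without hilum replicate 1 the estimate was 3.80 with an adjusted p of 0.0556.

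In the epidermis, 3 of the 57 members were higher (5.39% of all tested probe sets, 6.99% of named genes) and 6 lower (3.97%, 5.34%). Besides MYB172 and MYB11, the NAC gene NAC2 was higher by 1.63 ± 0.49 (adjusted p = 0.0354). The lower members were MYB48, NAC018, MYB124, NAC34, NAC14 and MYB138. NAC14 was clearest, with 450.7 and 583.8 in the epidermis and a difference of -1.76 ± 0.27 (adjusted p = 0.000104, 3.39-fold). Its epidermis arrays were above background and below every captured array outside the outer integument. Apart from MYB172, MYB11 and NAC14, each of these calls ended without 1 of the epidermis arrays or, for NAC2 and NAC34, also without certain arrays elsewhere. Without epidermis replicate 2, MYB124 was at -1.92 (adjusted p = 0.238), MYB138 at -1.54 (0.178), MYB48 at -3.22 (0.14) and NAC2 at 1.54 (0.287), and without replicate 1 NAC018 was at -1.67 (0.252). The count of 9 became 4 when either epidermis array was left out.

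In the hilum, 6 members were higher (4.95% of all probe sets, 6.07% of named genes) and 2 lower (3.96%, 6.04%). MYB56 was higher by 2.54 ± 0.61 (adjusted p = 0.00827), with signals of 641 and 596 in the hilum. NAC14 was higher by 1.32 ± 0.27 (adjusted p = 0.00221), and MYB60 by 1.88 ± 0.59 (adjusted p = 0.049). NAC34 was at 11.8 and 39.2, lower by 3.16 ± 0.60 (adjusted p = 0.0013, at least 2.5-fold). MYB51 was lower by 2.06 ± 0.54 (adjusted p = 0.0171). MYB56 lost its call when either hilum array was left out (2.49 with adjusted p = 0.15, and 2.60 with 0.13). The call also ended for NAC14 without replicate 2 (1.12, 0.14), and for NAC34 (-2.67, 0.0991) and MYB51 (-1.13, 0.579) without replicate 1. With the mean of its probe sets NAC34 was at -1.34 (0.127). The hilum count of 8 became 3 without replicate 1 and 5 without replicate 2, and the call of MYB60 ended in 16 of the 23 fits that left out 1 array.

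In the endothelium 9 members were higher (15.8%, against 5.17% of all tested probe sets and 7.46% of tested named genes). Only 1 was lower (1.75%, against 3.48% and 4.19%). For comparison, the WRKY and bZIP families of transcription factors had 5 of 35 and 4 of 47 tested genes higher there (14.3% and 8.51%). The difference from these families was not tested. Among the members NAC34 led. NAC34 (gene ID 100170720) gave 7944 and 4221 in the endothelium, 1971 and 3802 in the inner integument and 873.5 and 548.9 in the outer integument. Its highest signal in the other captured compartments was 336.5. Both endothelium arrays exceeded all other captured arrays, and the estimate was 5.08 ± 0.60 (adjusted p = 5.67e-06, at least 18.8-fold). NAC34 has 2 other probe sets, both too dim to be tested, and the mean over its probe sets was 1.54 higher (adjusted p = 0.0711).

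MYB48 (gene ID 778031) gave 2458 and 1398 in the endothelium, and its highest signal on another captured array was 784.6. It was 3.93 ± 0.81 higher (adjusted p = 0.00256, at least 8.07-fold). MYB56 (gene ID 778033) gave 762 and 1001 in the endothelium and 641 and 596 in the hilum, and 4.5 to 44.5 in the inner and outer integument. It was 3.10 ± 0.61 higher in the endothelium (adjusted p = 0.00153, at least 3.27-fold). MYB56 was thus bright in the hilum and endothelium and below background in both integument layers.

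NAC2, a stress-responsive gene, gave 1654 and 3416 and was 2.43 ± 0.49 higher (adjusted p = 0.00206). NAC6, which is known to promote cell death when overexpressed, gave 378 and 1132 and was 2.57 ± 0.62 higher (adjusted p = 0.00946, at least 3.09-fold). MYB172 was 2.81 ± 0.72 higher (adjusted p = 0.0139). MYB57, MYB11 and MYB124 were higher by 1.92 to 2.32, and MYB150 was lower by 1.74. The calls ended without endothelium replicate 1 for MYB48 (3.52, adjusted p = 0.124), MYB172 (3.05, 0.14) and MYB150 (-0.90, 0.709), and without replicate 2 for NAC2 (1.91, 0.0975), NAC6 (1.80, 0.244) and MYB172 (2.57, 0.147). The count of 10 became 4 without replicate 1 and 5 without replicate 2. The endothelium arrays differed in genes that were bright in the epidermis and hilum, with ANS2 at 997 and 10498 and ANR1 at 517 and 6692 on replicates 1 and 2. The part of this in the endothelium values was not tested.

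The inner integument had 9 members higher (9.81% of all probe sets, 12.5% of named genes) and 3 lower (12.8%, 14.9%). MYB75 (gene ID 778039) gave 1571 and 886 there and at most 286.5 on any other captured array, and was below background on all arrays of the embryo proper, endosperm, hilum and outer integument. It was 3.78 ± 0.61 higher (adjusted p = 7.14e-05, at least 6.95-fold). NAC34 was 3.85 ± 0.60 higher (adjusted p = 5.3e-05, at least 8.04-fold), the second compartment in which it was called higher. NAC19 gave 1388 and 1484 and was 3.44 ± 0.81 higher (adjusted p = 0.00292, at least 6.39-fold).

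MYB134 (gene ID 778066) gave 5030 and 7245 in the inner integument, 2419 and 3596 in the outer integument and 2346 and 2965 in the endothelium, with 110.5 to 390 in the endosperm. Both inner integument arrays exceeded every other captured array, and it was 2.48 ± 0.46 higher (adjusted p = 0.000294, 5.58-fold). MYB114 (gene ID 778086), which RefSeq also lists as GmLHY2b and is therefore of the kind of the circadian clock gene LHY, was at 592.9 and 411 and was 2.19 ± 0.53 higher (adjusted p = 0.00381, at least 2.61-fold). RefSeq lists MYB134 among the other names of MYB114, while the array annotation holds them as separate genes.

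MYB73 (2.38 ± 0.74, adjusted p = 0.0213), MYB109, MYB64 and NAC14 were also higher in the inner integument. MYB172, MYB60 and MYB56 were lower. The MYB172 estimate of -3.84 came from signals of 1253 and 9.6, and was -1.03 without replicate 2 (adjusted p = 0.135). Without replicate 2, NAC19 was at 3.39 (adjusted p = 0.0538), MYB60 at -1.82 (0.144) and MYB73 at 2.98 (0.0607). Without replicate 1, MYB73 was at 1.78 (adjusted p = 0.245), MYB114 at 1.94 (0.0701) and MYB56 at -1.94 (0.106). The call of MYB73 there also ended with array weights (2.23, 0.1), equal medians (2.20, 0.051) and the mean of its probe sets (1.46, 0.0606).

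In the outer integument NAC14 was low and MYB109 was high. NAC14 was also called lower in the epidermis, and MYB109 also higher in the inner integument. MYB109 in the outer over the inner integument was 1.66-fold (limma contrast, adjusted p = 0.596). NAC14 (gene ID 100170709) gave 200.2 and 298.2 in the outer integument, against 1546 to 4607 on the captured arrays of the 6 compartments other than the epidermis. It was lower by 2.93 ± 0.27 (adjusted p = 1.59e-07, 7.62-fold), and stayed above background. A second probe set of NAC14 was called in the epidermis and the hilum in the same directions, but in the outer integument it was at -1.30 (adjusted p = 0.0776) and the remaining one was at -0.09. MYB109 (gene ID 778049) gave 623.2 and 669 and at most 401.5 on any other captured array. It was higher by 2.79 ± 0.55 (adjusted p = 0.00142, at least 3.66-fold).

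In all, 3 members were higher in the outer integument (5.89% of all probe sets, 8.17% of named genes) and 6 lower (3.47%, 4.48%). MYB124 (2.24 ± 0.58, adjusted p = 0.0133) and MYB138 (1.51 ± 0.41, adjusted p = 0.0195) were the other higher members. MYB60, MYB79, MYB11, MYB75 and MYB56 were the other lower ones, and were below background on both arrays. Without outer integument replicate 2, MYB109 was at 2.74 (adjusted p = 0.0552), MYB124 at 2.50 (0.108), MYB138 at 1.59 (0.176), MYB79 at -2.74 (0.176) and MYB75 at -1.50 (0.517). Without replicate 1, MYB60 was at -2.41 (adjusted p = 0.124), MYB11 at -1.41 (0.441) and MYB56 at -1.44 (0.51). The count of 9 became 3 without replicate 1 and 4 without replicate 2, and NAC14 was called in both.

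The 5 seed coat regions were averaged and set against the embryo proper, suspensor and endosperm. In the seed coat 14 members were higher (24.6%, against 12.1% of all tested probe sets and 14.8% of tested named genes). A further 4 were lower (7.02%, against 9.4% and 10.6%). Of tested WRKY genes 14.3% were higher in the seed coat and 22.9% lower. For tested bZIP genes these shares were 25.5% and 4.26%, and the difference between families was not tested. MYB73 was higher by 3.48 ± 0.46 (adjusted p = 3.01e-06, at least 7.60-fold), and was above background on all 10 seed coat arrays and 3 of the 9 others. MYB11 was higher by 3.39 ± 0.35 (adjusted p = 9.99e-08, at least 3.99-fold). MYB172, NAC34, MYB109 and MYB134 were higher by 2.71, 2.54, 2.53 and 2.40. The lower members were MYB60 (-1.75 ± 0.36, adjusted p = 0.00063), NAC018 (-1.65 ± 0.33, adjusted p = 0.000388), NAC27 and NAC4.

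MYB114, MYB57, NAC2, NAC19, MYB48, MYB124, MYB56 and MYB75 made up the other higher members, at 1.18 to 2.10. Their order over single regions differed, as given above, so the seed coat mean covers unlike patterns. The mean over probe sets gave 0.86 for MYB11, 0.97 for NAC34 and -0.63 for MYB60, each under the 2-fold threshold. NAC27 was above background on 0 of the 10 seed coat arrays and 1 of the 9 others, so no fold is given. It was at -1.06 without endosperm replicate 3 (adjusted p = 0.0512) and at -0.99 without inner integument replicate 1. The call of NAC4 ended when any of 9 arrays was left out, and its estimate was -0.97 without hilum replicate 2 (adjusted p = 0.0939).

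**Figure D2:**
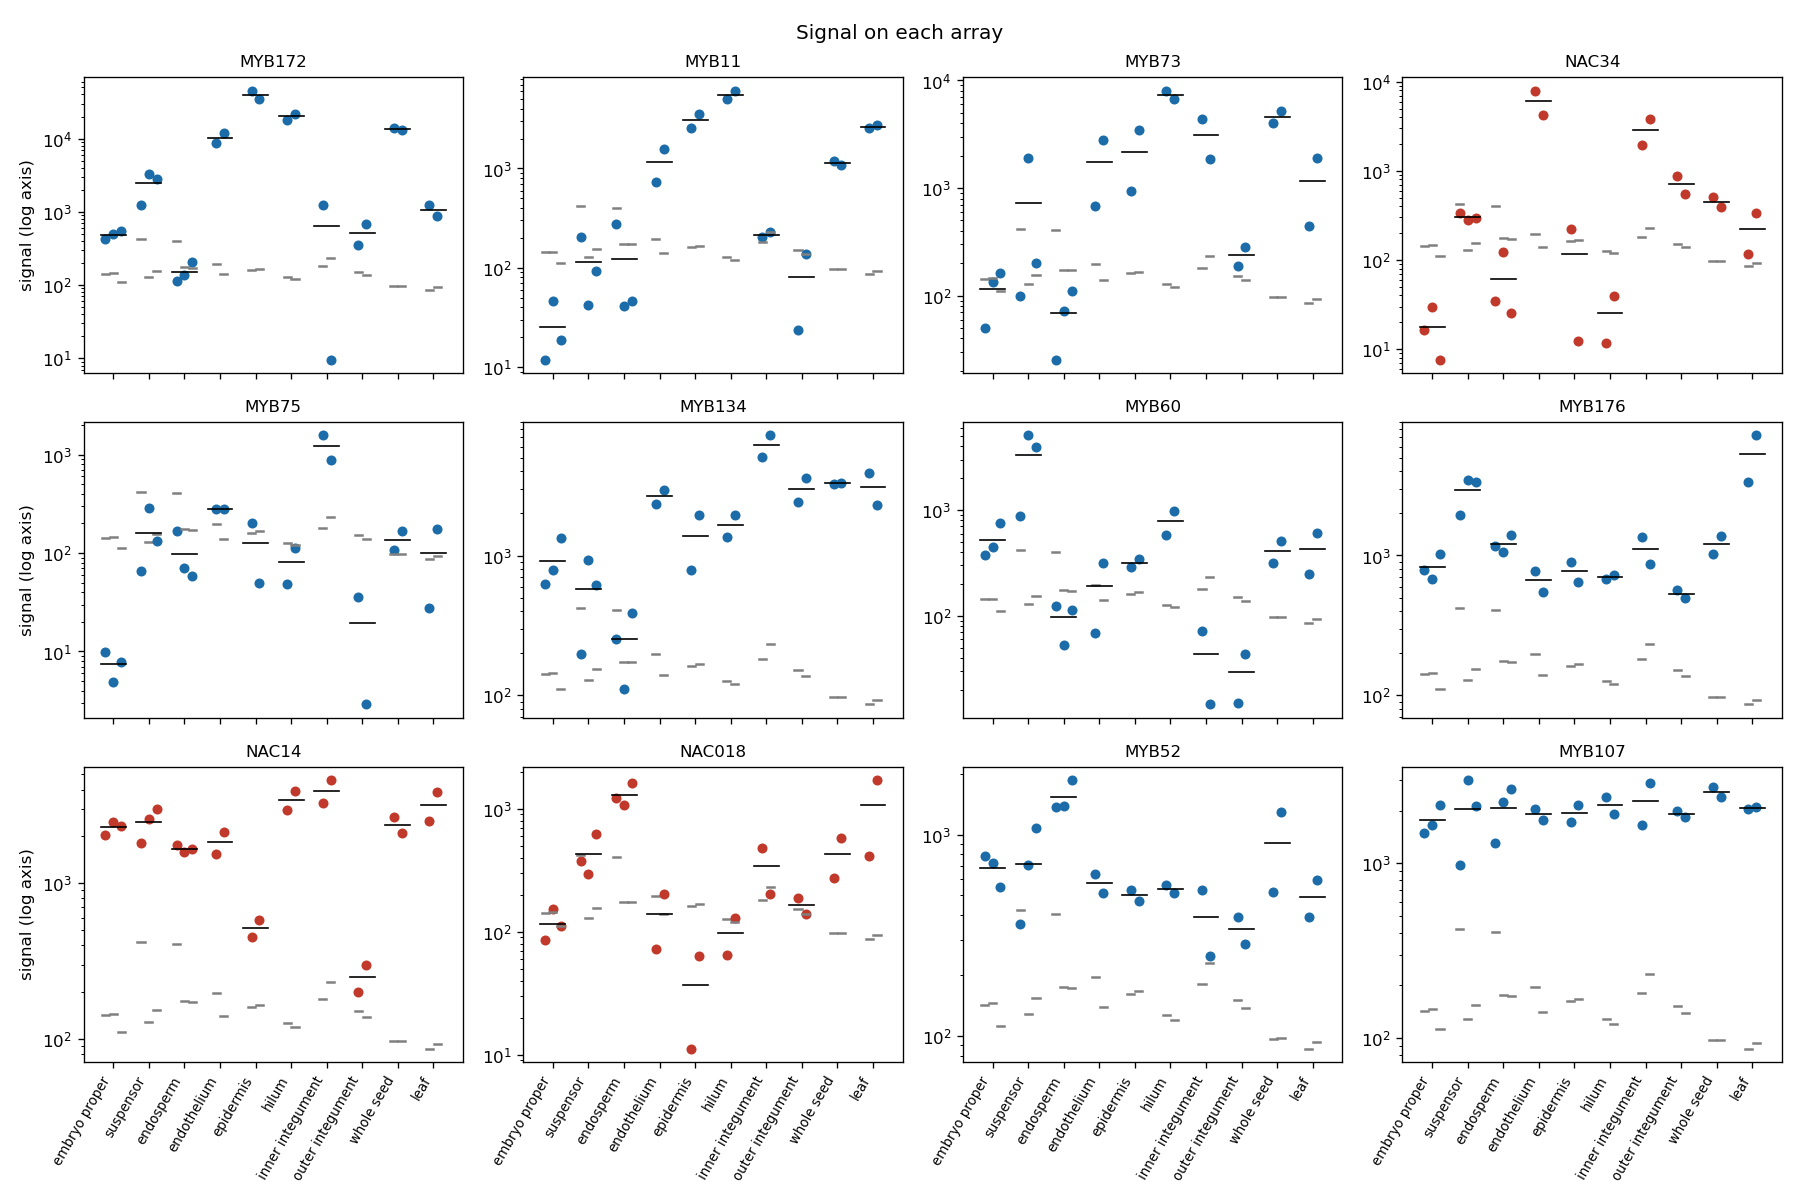
Signal (log axis) of 12 MYB and NAC genes on each of the 23 arrays, by sample group. Points are arrays (blue for MYB, red for NAC), black lines are group means, and grey ticks are the background of each array. MYB172 is brightest on the 2 epidermis arrays, NAC34 on the 2 endothelium arrays, MYB60 in the suspensor and NAC018 in the endosperm among captured compartments, and MYB107 is nearly level.

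The suspensor was marked by MYB60 and MYB176. MYB60 (gene ID 778080) gave 886.6, 5102 and 3956 in the suspensor, 577 and 989 in the hilum and 376.3, 449.6 and 754 in the embryo proper. No array of the endosperm or of either integument layer was above background. Replicate 1, the suspensor array of high background, lay within the range of the hilum, and the other 2 were above every other captured array. MYB60 was 3.90 ± 0.50 higher (adjusted p = 3.39e-06, at least 8.93-fold), and 4.68 higher without replicate 1. A second probe set was also called, at 1.68.

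MYB176 (gene ID 778059) is known in soybean as a regulator of the chalcone synthase gene CHS8 and of isoflavonoid synthesis. It gave 1939, 3479 and 3361 in the suspensor, 1056 to 1398 in the endosperm and 684 to 1018 in the embryo proper, with 500 to 1360 in the seed coat. All 3 suspensor arrays exceeded the other captured arrays, and the difference was 1.81 ± 0.26 (adjusted p = 1.78e-05, 3.51-fold). Its probe set is of a type that can also bind similar transcripts, and it shares the stem of its identifier with that of MYB175, so the signal may include MYB175. CHS8, chosen after its values were seen, gave 388.4, 177.2 and 55 in the suspensor and was lower there than in the mean of the other compartments (-1.68 ± 0.52, adjusted p = 0.0173). It was brightest in the epidermis (5262 and 6031) and the hilum (3982 and 4816).

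In the suspensor 6 members were higher (9.87% of all probe sets, 12.2% of named genes) and 7 lower (13.7%, 15.4%). NAC6 (1.80 ± 0.53, adjusted p = 0.0124), MYB56 (1.54 ± 0.51, adjusted p = 0.0266) and NAC018 (1.22 ± 0.45, adjusted p = 0.0453) were higher. MYB112 was as well, by 1.09 ± 0.21 (adjusted p = 0.000483), with signals of 24000, 14983 and 17719. The lower members were NAC19, MYB114, MYB11, MYB57, MYB134, MYB143 and MYB180.

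MYB180 was detected on all arrays and was lower by 1.14 ± 0.23 (adjusted p = 0.00053), and MYB114 was below background on all 3 suspensor arrays. Without replicate 1 the call ended for MYB112 (0.90, under 2-fold), MYB134 (-1.01, adjusted p = 0.0533) and MYB57 (-0.87, 0.219). Without replicate 2 it ended for NAC6 (1.51, 0.0816), MYB56 (1.09, 0.19), MYB143 (-1.57, 0.0524) and MYB11 (-1.31, 0.0796), and without replicate 3 for NAC6, MYB56 and MYB143. NAC018 lost its call in the replicate block fit (1.12, adjusted p = 0.0636) and when any of 14 arrays was left out. Seed coat markers were present on the suspensor arrays at the levels given above, and their part in these results was not tested.

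By their brightest probe sets, no member was called higher in the embryo proper than in the mean of the other 7 compartments. Of all tested probe sets 9.77% were, and of tested named genes 13%. The other MYB12A probe set described above was called higher there (1.97, adjusted p = 0.0181), though it was brighter in the suspensor. Lower calls fell on 12 members (21.1%, against 9.44% of all tested probe sets and 12.4% of tested named genes). At an unadjusted p under 0.05 there were 2 higher members, and over 35 alternatives 0 or 1 was called higher. NAC34 gave 16.3, 29.4 and 7.6 and was lower by 3.46 ± 0.51 (adjusted p = 2.92e-05, at least 2.42-fold). MYB11 was lower by 3.52 ± 0.48 (adjusted p = 1.13e-05, at least 3.03-fold), and MYB73 by 2.85 ± 0.63 (adjusted p = 0.00174). The others were MYB48, MYB75, MYB109, MYB124, MYB56, MYB172, NAC19, NAC2 and NAC6. Of the 12, 9 were below background on all 3 embryo proper arrays. MYB172, at 420.5, 502.6 and 548, was above it on each. The WRKY and bZIP families, for comparison, had 9 of 35 and 11 of 47 tested genes lower in the embryo proper (25.7% and 23.4%). The difference between families was not tested.

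Within the embryo, 12 members were lower in the embryo proper than in the suspensor (21.1%) and none was higher. Shares of all probe sets were 10.4% lower and 12.7% higher, and of tested named genes 13.8% and 15.3%. At an unadjusted p under 0.05 there were 2 higher members. MYB56 was at 6.2, 8.3 and 57.5 in the embryo proper and 105.8, 629 and 504 in the suspensor, lower by 3.34 ± 0.66 (adjusted p = 0.000647, at least 2.32-fold). NAC6 was at 9.6, 26.7 and 76.1 against 236.7, 613 and 459, lower by 3.18 ± 0.68 (adjusted p = 0.00131, at least 2.84-fold). NAC34 was lower by 3.29 ± 0.66 (adjusted p = 0.000704, at least 2.15-fold), but was at -1.54 with the mean of its probe sets (adjusted p = 0.0546). The arrays of the 2 sides did not overlap for these 3 genes, and 2 of the 3 suspensor arrays were above background for each.

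MYB176 (-1.77 ± 0.34, adjusted p = 0.000515) and MYB112 (-1.14 ± 0.28, adjusted p = 0.00375) were lower in the embryo proper while above background on all 6 arrays, and so was MYB60 (-2.34 ± 0.65, adjusted p = 0.01). MYB75, MYB48, MYB172, MYB124, NAC018 and MYB109 were the rest. MYB60 was at -1.86 without suspensor replicate 2 (adjusted p = 0.0571), and MYB48 was at -1.88 without suspensor replicate 3 (0.153) and also ended without 3 other arrays. When arrays were scaled to equal medians, 8 members were called lower, and the median of all tested probe sets shifted from 0.07 to 0.30.

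In the endosperm 4 members were higher (1 MYB and 3 NAC genes) and 13 were lower (22.8%), 11 of them MYB and 2 NAC. Of all probe sets 10.1% were higher and 12.4% lower there, and of tested named genes 9.94% and 17.1%. NAC018 (gene ID 100779770) gave 1228, 1061 and 1620 in the endosperm and at most 619.7 on any other captured array. It was 3.06 ± 0.45 higher (adjusted p = 1.86e-05, at least 6.86-fold), with no overlap. MYB52 (gene ID 778032) gave 1376, 1383 and 1865 and was 1.57 ± 0.33 higher (adjusted p = 0.000905, 2.96-fold), also above every other captured array. NAC4, a stress-responsive gene, gave 393.5, 249.9 and 864 and was 2.23 ± 0.60 higher (adjusted p = 0.00752, at least 3.10-fold).

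NAC27, known in soybean as SALT INDUCED NAC1 for its part in root growth under salt, gave 222.6, 88.5 and 644.6, of which 1 array was above background. It was 1.77 ± 0.58 higher (adjusted p = 0.0247, at least 1.44-fold), and was above background on 0 of the 16 other captured arrays. The probe sets of NAC4 and NAC27 share the stem of their identifiers, so the signals of these genes cannot be taken as independent. Both were brightest on endosperm replicate 3, the one captured with another microscope. Without that replicate NAC4 was at 1.76 (adjusted p = 0.0795) and NAC27 at 1.08 (0.24), and NAC27 was at 1.82 without endosperm replicate 1 (0.0645). NAC018 and MYB52 kept their calls when any array was left out.

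Among the genes low in the endosperm, MYB172 was at -4.00 ± 0.61 (adjusted p = 2.77e-05) and MYB73 was lower by 3.58 ± 0.63 (adjusted p = 0.000146, at least 3.74-fold). MYB134 was lower by 2.84 ± 0.38 (adjusted p = 6.74e-06). For MYB172 and MYB134 only 1 of the 3 endosperm arrays was above background, so these estimates are in part against a level that was not measured. NAC34, MYB109, MYB56, MYB11, MYB138, MYB112, MYB57, MYB60, NAC2 and MYB114 were lower by 1.27 to 2.29 on the log2 scale. MYB109, MYB56 and MYB114 were below background on all 3 endosperm arrays, with no fold that could be bounded above 1, and with the mean of its probe sets NAC34 was at -0.56 (adjusted p = 0.374). MYB112 was detected on all captured arrays, and its endosperm signals of 5158, 3645 and 2929 lay below each of the others. MYB133, known in soybean as a regulator of isoflavonoid genes, differed among compartments with its highest mean in the endosperm (849, 771 and 1273), but was not called in the endosperm contrast.

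**Figure D3:**
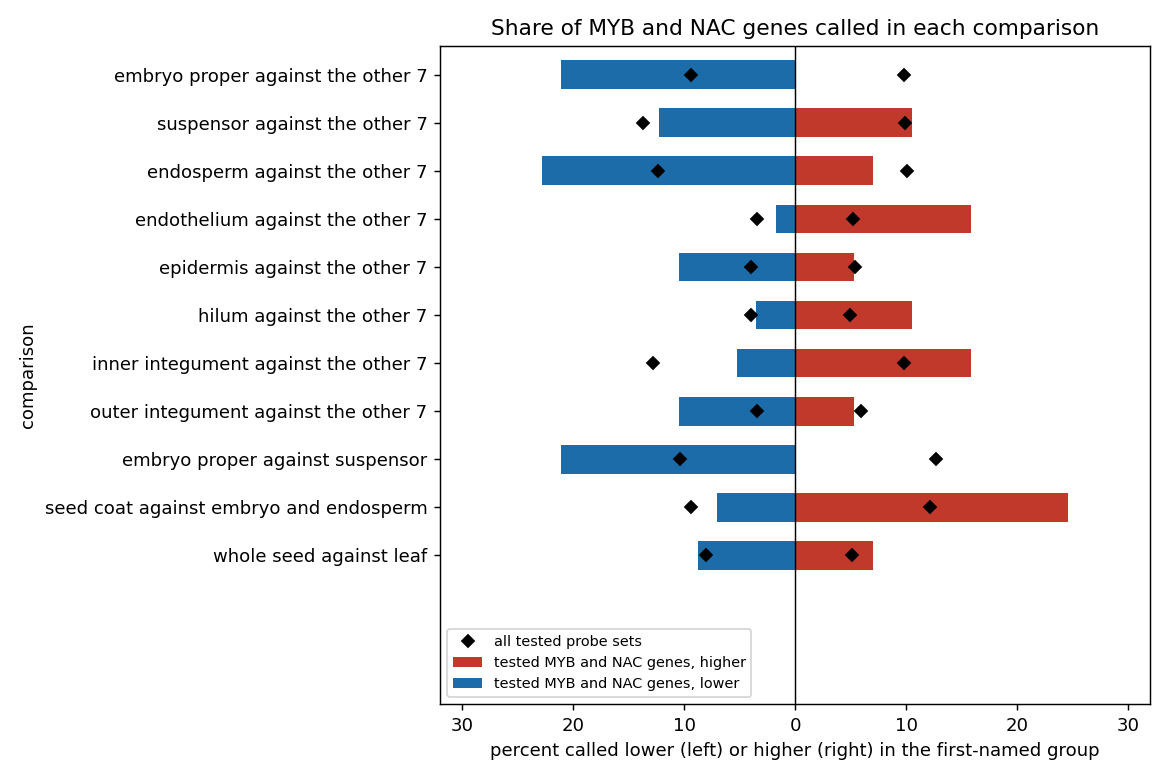
Percent of the 57 tested MYB and NAC genes called lower (blue, left) or higher (red, right) in the first-named group of each comparison, with the percent of all 25686 tested probe sets called the same way as black diamonds. Higher calls exceed the diamond most in the endothelium and the seed coat. By brightest probe sets, the embryo proper has lower calls only.

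The comparisons share arrays. A gene bright in 1 compartment lowers the contrast of the others, so counts for different compartments are not independent. Over the 8 compartment contrasts 30 members were called at least once, 25 of them higher somewhere, and 12 were higher in more than 1 compartment. These are 52.6%, 43.9% and 21.1% of the tested members, against 55%, 41.8% and 14.5% of all tested probe sets and 62.7%, 49.6% and 19.9% of tested named genes.

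Enzymes of the flavonoid and phenylpropanoid pathways, whose genes are known targets of R2R3-MYB proteins in plants, were set beside the members. Members were chosen by symbol, and which of the MYB members are of the R2R3 class was not determined. Of 31 such genes 30 were tested. Among the compartments 26 differed (86.7%, against 52.6% of all tested probe sets and 64.1% of tested named genes). In the epidermis 13 were higher and 5 lower (43.3% and 16.7%), and in the hilum 12 and 3 (40% and 10%). The suspensor had 12 higher and 3 lower (40% and 10%), and the endothelium 8 and 2 (26.7% and 6.67%). For all tested probe sets these shares were 5.39% and 3.97%, 4.95% and 3.96%, 9.87% and 13.7%, and 5.17% and 3.48%, in the same order. In the embryo proper 2 were higher and 13 lower (6.67% and 43.3%, against 9.77% and 9.44% of all tested probe sets). The inner and the outer integument each had 1 higher and 9 lower (3.33% and 30%). All tested probe sets gave 9.81% and 12.8% in the inner and 5.89% and 3.47% in the outer integument. In the endosperm 18 were lower (60%, against 12.4% of all tested probe sets). None was higher there (10.1% of all tested probe sets were), and 1 was at an unadjusted p under 0.05. The median estimate was 0.98 in the epidermis and 0.90 in the suspensor, against 0.02 and -0.10 for all tested probe sets, and -1.36 in the endosperm, against 0.15.

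Different enzymes led in different places. The anthocyanidin synthase ANS2 gave 32447 and 34593 in the epidermis and 23093 and 27502 in the hilum, and was higher by 5.13 ± 0.55 and 4.66 ± 0.55 (adjusted p = 2.1e-06 and 9.84e-06). Dihydroflavonol reductase DFR1 was higher by 5.53 ± 0.65 in the epidermis (adjusted p = 4.89e-06), and the anthocyanidin reductase ANR1, of tannin synthesis, by 5.12 ± 0.74 in the hilum (adjusted p = 8.02e-05). Among captured compartments, MYB172 and MYB11 had their 2 highest means in the same places.

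In the endothelium the early phenylpropanoid enzymes CYP98A2 (16220 and 11209), 4CL3 (10497 and 5243) and C4H (14502 and 8856) were higher, by 5.31, 4.63 and 3.27. In the suspensor isoflavonoid enzymes were called unevenly. CHR5, IFS1, IFS2, HIDH, IFR1 and CHI1A were higher, while CHR1 (0.55), CHR4 (0.08), IFR (0.93) and IFR2 (0.87) were not called. Chalcone reductase CHR5 gave 5475, 4661 and 4241, and isoflavone synthase IFS2 gave 4399, 3923 and 3462. They were at least 26.6-fold and 21.9-fold higher than in the mean of the other compartments (adjusted p = 4.07e-10 and 4.99e-09). The suspensor was also where MYB176 was called higher. MYB133, of related known function, was at 558, 479 and 871.5 there and was not called. These values stand side by side, and no relation between a factor and an enzyme was tested.

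In the embryo proper against the suspensor, 19 of the 30 enzymes were lower (63.3%, against 10.4% of all tested probe sets). None was higher (12.7% of all tested probe sets were), and 1 was at an unadjusted p under 0.05. CHI2-A was at -5.04 ± 0.38, CHR5 at -6.38 ± 0.61 and C4H at -3.63 ± 0.41. Both the enzymes and the MYB and NAC genes had calls in 1 direction only in that comparison. Other families also had more lower than higher calls there. Of 35 tested WRKY genes 14 were lower and 1 higher, and of 47 tested bZIP genes 8 and 2.

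Whole seed and leaf, both ground, were compared with each other. In whole seed 4 members were higher (7.02%, against 5.15% of all tested probe sets and 6.76% of tested named genes). Lower calls numbered 5 (8.77%, against 8.03% and 12.3%). MYB127 (gene ID 778052) gave 3565 and 2168 in leaf and 30.6 and 70.3 in whole seed, and at most 244.4 on any captured array. It was lower in whole seed by 5.46 ± 0.89 (adjusted p = 0.000192, at least 24.6-fold). The MYB145 gene with ID 100780267 gave 366 and 1025 in leaf and 9.8 and 11.7 in whole seed, a difference of -4.56 ± 0.85 (adjusted p = 0.000722, at least 5.56-fold). MYB128 gave 748 and 980 in leaf and was lower in whole seed by 2.66 ± 0.55 (adjusted p = 0.00193). MYB127, MYB128 and this MYB145 gene were above background throughout leaf and throughout no compartment of the seed. On single arrays MYB128 was not restricted to leaf. It was above background on 12 arrays, among them 2 of the 3 each of the embryo proper, suspensor and endosperm and 1 of whole seed. MYB127 was above background on 3 arrays, 2 of leaf and 1 of the embryo proper, and this MYB145 gene on the 2 of leaf only.

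MYB176 gave 3344 and 7226 in leaf and 1021 and 1384 in whole seed, a difference of -2.03 ± 0.42 (adjusted p = 0.00176, 4.09-fold). NAC26 was lower in whole seed by 2.84 ± 0.79 (adjusted p = 0.0172, at least 1.70-fold). Its signal was 94.9 and 320 in leaf, and 22.3 and 2.9 in whole seed, below background on both whole seed arrays. MYB124 was at 4.6 and 4.8 in leaf, below background, and at 191 and 526.4 in whole seed, higher by 4.02 ± 0.78 (adjusted p = 0.000978, at least 3.17-fold). MYB112 was higher in whole seed by 1.70 ± 0.34 (adjusted p = 0.00126), with 7820 and 10944 against 2725 and 2944. MYB172 (3.68 ± 0.96, adjusted p = 0.0117) and MYB51 (2.58 ± 0.73, adjusted p = 0.0196) were also higher.

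Without leaf replicate 2, MYB176 was at -1.48 (adjusted p = 0.0785), NAC26 at -2.04 (0.26), MYB172 at 3.44 (0.0993) and MYB51 at 2.20 (0.185), and the count of 9 became 5. MYB172 and MYB51 also lost their calls without any other of the 4 arrays, as NAC26 did without whole seed replicate 2 (-2.33, 0.195). MYB172, MYB11 and MYB73 were at 13168 to 13983, 1092 to 1186 and 4040 to 5200 in whole seed. Leaf had more MYB11 signal than whole seed (2535 and 2741), and this difference was not called.

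**Figure D4:**
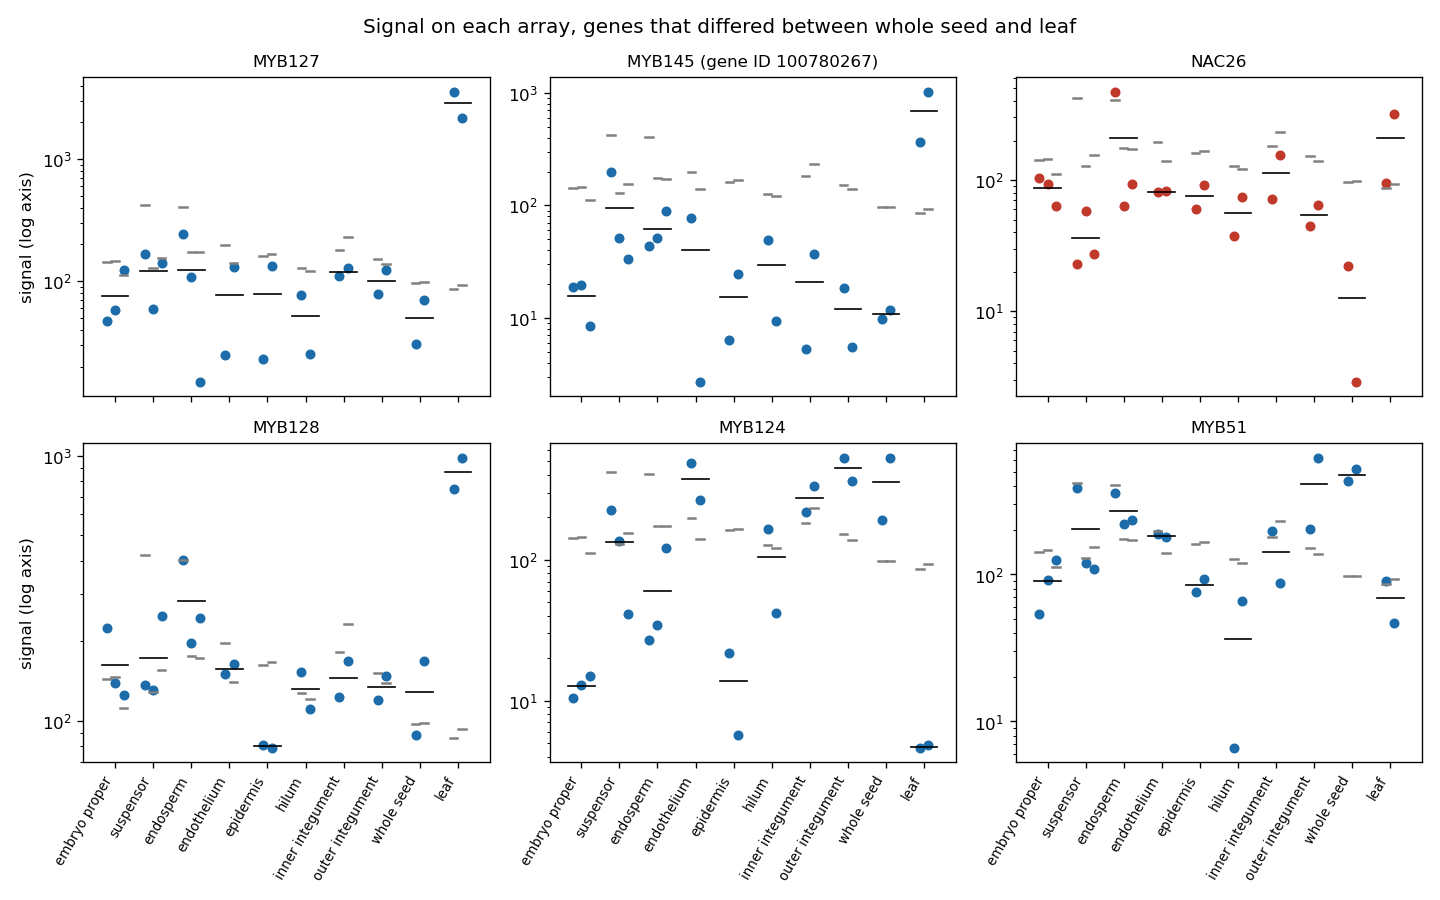
Signal (log axis) of 6 MYB and NAC genes that differed between whole seed and leaf, on each of the 23 arrays by sample group. Points are arrays (blue for MYB, red for NAC), black lines are group means, and grey ticks are the background of each array. MYB127, MYB128 and the MYB145 gene with ID 100780267 are brightest on the 2 leaf arrays, and MYB124 is below background there.

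Several members rest on probe sets that may also bind related transcripts, by the suffix of their identifiers. These are MYB50, MYB52, MYB84, MYB92, MYB93, MYB136, the MYB145 gene with ID 778185, MYB172, MYB175, MYB176, MYB180, NAC1, NAC4 and NAC14. In total 33 members had more than 1 probe set, though not all of these probe sets were bright enough to be tested. No gene had tested probe sets called in opposite directions in the same contrast.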

How the data were processed

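The deposited values were intensities per probe set on a linear scale, and GCOS 1.3 is named per the submitters' processing notes. How the authors combined probes into 1 value: not given in the sources used here. All arrays had the same trimmed mean, so no further scaling was applied. Members and gene lists were chosen with earlier results of these data known, and 0 columns were left unused.

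Background came from 23350 pathogen probe sets, while 227 probe sets for controls and rRNA were not analysed. Of 37593 soybean probe sets, 25686 were tested, those detected on all arrays of 1 group or more. Signals were fitted as log2(signal + 16) with limma 3.58.1 in R 4.3.3 (lmFit, eBayes with a trend) in 1 model of 10 groups and 23 arrays, with 13 residual degrees of freedom. The offset understates differences of dim genes. Contrasts were 2-sided with Benjamini-Hochberg adjustment. Every p and adjusted p in the text is from this limma model or its alternatives, and errors of log2 differences are SE. Precision is limited by the few arrays per group. The fit was tested on simulated data.

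Names came from the platform annotation, with 9047 annotated soybean probe sets (8677 with 1 gene). RefSeq of Glycine_max_v4.0 held 72 of the 81 members and was used for names only. In each contrast up to 6 called members per direction, those with the largest estimates, were to be given with values, as were specific genes, genes detected throughout or nowhere, the least variable genes and up to 3 enzymes. Other called members are listed by name. Sequences and proteins of the members were not used here, and a list of secondary wall genes matched no symbol. Deviations of replicates that share a number had low correlations (r of -0.14 to 0.26 over 93 pairs, with 7 over 0.1). The main model has no block. Between groups of 2 arrays both pairs give the same r, so the pairs are not independent. The highest values were 0.263 for suspensor and endosperm replicate 1 and 0.221 for embryo proper and endosperm replicate 3. Alternatives changed the offset, filter, background, scaling, array weights, probe sets, block and arrays used.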

Additional observations from a re-analysis of the deposited data

How the results depend on the processing

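Of 95 results for named members, 37 kept their call under all 12 alternatives and without each of 23 arrays in turn, 49 lost it without at least 1 array, 21 with the mean of a gene's probe sets and 14 under another alternative. MYB57 in the suspensor turned from -1.69 to 0.14 with the mean of the probe sets. With array weights the counts became 14 for the hilum, 21 for the outer integument, 7 for the suspensor, 16 for whole seed against leaf and 1 for compartment-specific members, and without the 2 arrays of highest background 1 member was specific. With the mean of probe sets the hilum count was 4. The cause of these shifts was not tested. Without 1 array at a time, the number of members called ranged from 8 to 13 for embryo proper against suspensor, 9 to 13 for the embryo proper, 9 to 13 for the suspensor, 12 to 19 for the endosperm, 4 to 11 for the endothelium, 4 to 12 for the epidermis, 3 to 10 for the hilum, 8 to 14 for the inner integument, 3 to 12 for the outer integument, 16 to 21 for the seed coat, 5 to 11 for whole seed against leaf, 24 to 29 for the F test and 0 to 1 for specific members. With a replicate block, 92 of the 95 named results kept their call and the F test called 26 members; NAC018 in the suspensor (1.12, adjusted p = 0.0636), NAC27 in the seed coat (-1.18, adjusted p = 0.0699) and NAC4 in the seed coat (-1.22, adjusted p = 0.0709) did not. Scaling to equal medians moved the median of all probe sets by over 0.1 for the embryo proper (-0.02 to 0.10), suspensor (-0.10 to -0.25), hilum (0.02 to 0.19), inner integument (-0.07 to -0.23) and embryo proper against suspensor (0.07 to 0.30), and left 3 members higher in the suspensor in place of 6. Without the filter on dim probe sets, 4 of the 24 untested members were called in some comparison. Signal over background limits what can be said of the dim members, and 2 arrays a region limit the seed coat.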
